A study of Homo sapiens with 8 samples.

Results

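Ribosome footprints of 2 BJ-HRAS SNORA13 KO clones (66 and 69) were compared with those of 2 BJ-HRAS WT clones (15 and 54), all grown without (Z)-4-hydroxytamoxifen (4-OHT). These are 4 of the 8 libraries of the study, and all 11546 genes listed for them were considered. BJ is an established line of human skin fibroblasts, and every clone carries the label BJ-HRAS, whose construct the labels do not describe. The other 4 libraries come from the same clones after 7 days of 100 nM 4-OHT and are used here only for comparison. The series describes the clones as independent. Each genotype is carried by 2 clones, so the deletion and other differences between clones cannot be told apart. The p-values set a difference against the spread between clones, which the fits estimate largely from all tested genes together.

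SNORA13 is a small nucleolar RNA of the H/ACA box class. Such RNAs sit in a particle with the pseudouridine synthase dyskerin (DKC1) and its partners NHP2, NOP10 and GAR1, and most of them guide the conversion of uridine to pseudouridine in ribosomal RNA. The title of the series gives this RNA a non-canonical role in ribosome biogenesis and senescence. Ribosome profiling sequences the mRNA fragments that ribosomes protect from nuclease, so the footprint level of a gene reflects both the amount of its mRNA and how heavily that mRNA is translated. No matched RNA libraries were analysed here, so the contributions of both cannot be told apart.

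SNORA13 and EPB41L4A-AS1, the gene that hosts it, were not analysed here, nor were HRAS and CDKN2A, so the deletion was not checked in these values. In the RefSeq annotation SNORA13 occupies 133 bases of chromosome 5 (GRCh38.p14, 112161485 to 112161617). EPB41L4A, a protein-coding gene whose span includes this position, had a single recovered read in WT clone 54 and none in the other libraries. Of 12 genes listed within 2 Mb, 8 were tested and none passed the threshold, which 0.600% of all tested genes passed (median log2 difference 0.02). Of the 8, 2 were higher and 0 lower without overlap between the genotypes, against 18.9% and 20.7% of all tested genes. CAMK4 and MCC fell under the read filter and were not tested. CAMK4 had 8 and 6 recovered reads in WT clones 15 and 54 and 0 and 0 in knockout clones 66 and 69. MCC had 11 and 9 against 1 and 6. With 4-OHT CAMK4 had 20 and 10 reads in WT and 0 and 0 in knockout libraries. MCC was then at 0.0598 and 0.0837 against 0.0449 and 0.0524 RPKM. Neither was called there (adjusted p = 0.790 and 0.818 by limma-trend). KCNN2, a potassium channel gene 1894 kb away, had the lowest adjusted p of the 8 (0.0822 by limma-trend, log2 difference 1.36). It was at 0.0515 and 0.0602 RPKM in the WT clones and 0.156 and 0.138 in the knockout clones. With 4-OHT KCNN2 was at 0.118 and 0.0809 against 0.202 and 0.229 RPKM (log2 difference 1.12, adjusted p = 0.784 by limma-trend). SLC25A46, the other gene higher without overlap, overlapped with 4-OHT.

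Fibroblast genes were well covered in every library: THY1, a surface protein of fibroblasts, was at 71.3 and 70.8 RPKM in WT and 72.1 and 74.0 RPKM in knockout clones, and COL1A2, a chain of type I collagen, at 808, 788, 766 and 650 RPKM. Of the markers of other cell types, 4 leukocyte, 4 epithelial, 3 keratinocyte, 2 melanocyte, 5 endothelial and 2 adipocyte genes were listed, and no keratinocyte or adipocyte marker passed the read filter. Smooth muscle and pericyte markers took 0.079% to 0.135% of the reads and each of the other lists less than 0.1%. Endothelial markers took 0.0587% and 0.0442% of the reads in the WT and 0.0876% and 0.0759% in the knockout clones. Both that were tested, FLT1 and EGFL7, were higher without overlap and not called (log2 differences 0.68 and 1.04). Of all tested genes 18.9% were higher without overlap, and 2 genes say little. The tested leukocyte markers CD14 and CD68 had log2 differences of 0.30 and 0.60, and CD68 overlapped. The epithelial KRT18 and KRT8 were at -0.56 and -0.33, and the melanocyte KIT and MITF at -1.18 and 0.09. None of these markers was called. The part of such cell types in the results was not tested.

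The deposited values were RPKM (reads per kilobase, scaled to library size) over the whole span of each gene, introns included. They compare one gene between libraries; they do not compare levels between genes. The step between low values gave 1321298 and 789950 reads for WT clones 15 and 54, and 901419 and 1709524 reads for knockout clones 66 and 69. Knockout clone 66 had 1913 listed genes at 0, against 860 to 1311 in the other 3 libraries. It also stood apart over all tested genes, with Pearson correlations of 0.871 to 0.910 to the other libraries, while WT clone 15 and knockout clone 69 were the closest pair (0.946). Among the 1764 genes of at least 100 CPM (reads scaled to library size, without gene length) in the mean, the closest pairs were those of one genotype. There the median absolute log2 difference was 0.187 between the WT clones, 0.200 between the knockout clones and 0.215 to 0.265 between genotypes.

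The difference between knockout and WT was tested for 8162 genes, each with 10 or more recovered reads in 2 or more of the libraries, by limma-trend on log2(CPM + 1). At a Benjamini-Hochberg adjusted p under 0.05, 49 genes passed (0.600% of those tested), of which 30 were higher (0.368%) and 19 lower (0.233%) in the knockout clones. Genes that passed are called below. Their absolute log2 differences ran from 0.70 to 4.33 with a median of 1.5, while the median over all tested genes was -0.03. Of all tested genes, 719 had an unadjusted p under 0.05. The higher genes included the prostaglandin enzyme PTGS2 and the secreted proteins IGFBP2, LOX and LUM. The lower genes included the chemokine CXCL12 and 4 genes of amino acid or folate metabolism (SLC7A5, PSAT1, BCAT1 and ALDH1L2). The count depends on the scale of the values: with 1 RPKM in place of 1 CPM added before the logarithm, without the read filter, or with all 8 libraries in the fit, no gene was called (lowest adjusted p 0.222, 0.663 and 0.0593). By limma-voom on the recovered reads 62 genes were called (0.760%), 44 of them among the 49.

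**Figure D1:**
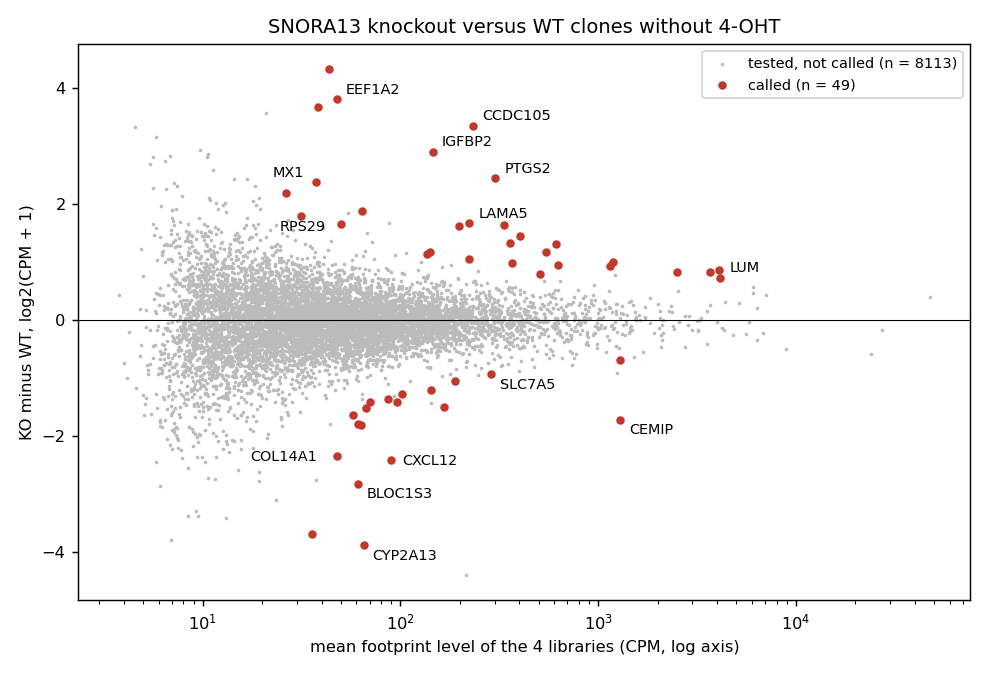
Each point is a tested gene, with its mean footprint level over the 4 libraries without 4-OHT in CPM on the horizontal log axis and the knockout minus WT difference in log2(CPM + 1) on the vertical axis. The 49 called genes are in red; most of the others lie close to 0 at high levels and spread widely at low levels.

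PTGS2, the inducible cyclooxygenase that starts prostaglandin synthesis, was at 10.3 and 10.8 RPKM in WT clones 15 and 54 and at 46.0 and 73.1 RPKM in knockout clones 66 and 69. Both knockout clones lay far above both WT clones, which were almost equal. The log2 difference was 2.45 ± 0.23 (SE, n = 2 clones per genotype; adjusted p = 1.41e-04 by limma-trend). With 4-OHT the same clones gave 29.2 and 42.9 RPKM in WT and 78.3 and 126.3 in knockout libraries, again without overlap (log2 difference 1.49; adjusted p = 0.19 by limma-trend and 9.64e-12 by limma-voom). The limma-voom fit with 4-OHT had 359 prior plus residual degrees of freedom, against 14.1 in the main fit without 4-OHT. Its p-values therefore rest almost wholly on spread pooled over genes. PTGS2 stayed called when any 1 library was left out.

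IGFBP2, a secreted protein that binds insulin-like growth factors, was at 1.54 and 0.693 RPKM in the WT clones and 6.36 and 9.93 RPKM in the knockout clones. The knockout values were several times the WT values in every pairing, with a log2 difference of 2.90 ± 0.34 (SE, adjusted p = 8.4e-04 by limma-trend). It was the only gene that limma-trend called between the genotypes in both states. Limma-voom called IGFBP2, PTGS2 and STK25 in the same direction in both states, and BLOC1S3 and THBS1 in opposite directions. With 4-OHT it was at 1.51 and 0.876 RPKM in WT and 8.78 and 8.24 RPKM in knockout libraries (log2 difference 2.85, adjusted p = 0.0192 by limma-trend). IGFBP5, of the same family, was at 122 and 124 RPKM in the WT clones and 247 and 203 RPKM in the knockout clones (log2 difference 0.86, adjusted p = 0.0114). The other members tested, IGFBP3, IGFBP4, IGFBP6 and IGFBP7, had log2 differences of 0.04, 0.06, -0.14 and 0.22 and were not called.

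Of the matrix list, 3 of 39 tested genes were called higher, against 0.368% of all tested genes. They were LOX, the enzyme that cross-links collagen and elastin, LUM (lumican, a proteoglycan bound to collagen fibrils) and COL8A1, a short-chain collagen. LOX was at 55.7 and 49.7 RPKM in WT and 107 and 103 RPKM in knockout clones, a log2 difference of 1.00 ± 0.15 (SE, adjusted p = 0.00608 by limma-trend). LUM was at 388 and 316 against 557 and 607 RPKM (0.73, adjusted p = 0.0334), and COL8A1 at 0.475 and 0.598 against 1.27 and 1.16 RPKM (1.18, adjusted p = 0.0256). No knockout value of these 3 genes fell within the WT range, as in every called gene. The whole list of 39 tested fibroblast matrix genes was divided. With these 3 included, 13 were higher and 11 lower without overlap between the genotypes, against 18.9% and 20.7% of all tested genes. The list's median log2 difference was -0.01. COL1A1, the main chain of type I collagen, was at 1699 and 1594 RPKM in WT and 1223 and 983 RPKM in knockout clones; FN1 (fibronectin) was at 137 and 141 against 105 and 90.5 RPKM. Both passed the threshold by limma-voom (adjusted p = 0.00137 and 0.011) and not by limma-trend (0.106 and 0.167).

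Other secreted or membrane proteins were called higher. EDN1, the precursor of the vasoconstrictor endothelin-1, was at 3.98 and 2.59 RPKM in WT and 9.09 and 8.47 RPKM in knockout clones (log2 difference 1.44, adjusted p = 0.0048); EDN1 is also expressed by endothelial cells, whose marker reads are given above. LAMA5, a laminin chain of basement membranes, was at 1.42 and 2.30 against 6.13 and 5.48 RPKM (1.67, adjusted p = 0.00431). ADAMTS1, a secreted metalloprotease, was at 282 and 265 against 514 and 455 RPKM (0.82, adjusted p = 0.0119). In each of these genes, which were picked because they were called from these values, the knockout clones resembled each other more than they resembled a WT clone. TNFRSF11B (osteoprotegerin, a decoy receptor for RANKL), SVEP1, ITGB4, NRP2, CDH13, SCARA3, APLP1, CLSTN2, PLPPR4 and SYT1 were also called higher, with log2 differences from 0.93 for TNFRSF11B to 3.67 for CDH13. CDH13, SCARA3 and CLSTN2 were not called by limma-voom.

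The lysosomal proteases CTSC (dipeptidyl peptidase) and CTSH rose. They were the 2 genes called of 32 tested on the lysosomal list, against 0.368% of all tested genes called higher. CTSC was at 7.09 and 7.96 RPKM in WT and 16.3 and 17.7 RPKM in knockout clones (log2 difference 1.18 ± 0.17 SE, adjusted p = 0.00431 by limma-trend) and kept its call when any 1 library was left out. CTSH was at 3.18 and 3.89 against 6.78 and 8.88 RPKM (1.13, adjusted p = 0.0439). NPC2, which carries cholesterol out of lysosomes, was at 4.42 and 4.21 against 9.46 and 9.53 RPKM and just missed the threshold (adjusted p = 0.0507). Among 32 tested lysosomal genes, 10 were higher and 1 lower without overlap, against 18.9% and 20.7% of all tested genes, and the median log2 difference was 0.15; without knockout clone 69 that median was -0.005.

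The remaining called genes that were higher had varied functions. RDH10, which oxidises retinol on the way to retinoic acid, was at 7.08 and 6.22 RPKM in WT and 15.8 and 17.9 RPKM in knockout clones (log2 difference 1.33, adjusted p = 0.00334). CITED2, a coregulator that binds CBP and p300, was at 614 and 653 against 1179 and 1067 RPKM (0.82, adjusted p = 0.0128). EEF1A2, a form of the translation elongation factor 1A best known from muscle and neurons, was at 0.683 and 0.343 against 9.01 and 7.18 RPKM (3.81, adjusted p = 6.3e-04), resting on 10 and 3 reads in WT and 90 and 136 in knockout clones. CCDC105, named TEKTL1 in RefSeq, encodes a tektin-like protein and was at 2.95 and 3.12 against 46.9 and 21.5 RPKM (3.35, adjusted p = 1.41e-04). C3, the central complement component, was at 0.0176 and 0.147 against 0.903 and 3.01 RPKM, with 1 and 5 reads in the WT clones, and was not called by limma-voom (adjusted p = 0.313). SYNPO2, an actin-binding protein and the one called gene among the smooth muscle markers, and SLC38A11 complete this group with log2 differences of 1.31 and 0.80. SYNPO2 was the 1 called of 6 tested smooth muscle and pericyte markers, against 0.368% of all tested genes called higher. Of the 6 tested markers, 2 had a log2 difference above 0, and the list median was -0.22. Without overlap 1 was higher and 2 were lower, against 18.9% and 20.7% of all tested genes.

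**Figure D2:**
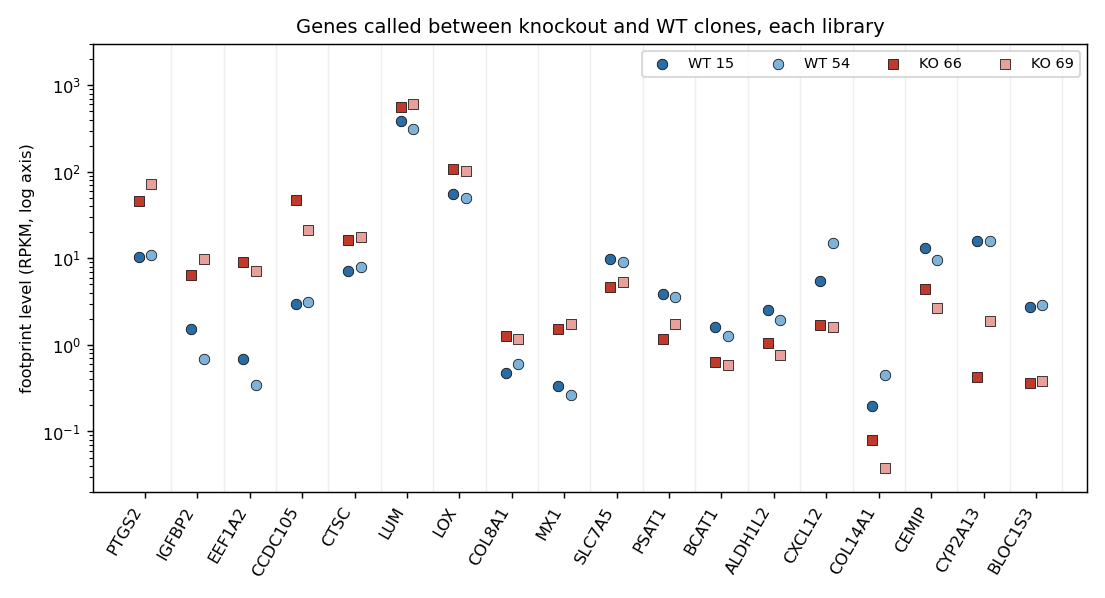
Footprint levels in RPKM on a log axis of 18 called genes in WT clones 15 and 54 (circles) and knockout clones 66 and 69 (squares), without 4-OHT. For each gene the pair of knockout values lies wholly above or wholly below the pair of WT values; CXCL12 and CYP2A13 have wide pairs, with 5.47 and 15.2 RPKM in WT for the former and 0.431 and 1.89 RPKM in knockout clones for the latter.

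CEMIP, needed for the breakdown of hyaluronan, fell. It was at 13.3 and 9.61 RPKM in WT and 4.39 and 2.68 RPKM in knockout clones (log2 difference -1.72 ± 0.22 SE, adjusted p = 0.00164 by limma-trend) and stayed called when any 1 library was left out. CXCL12, a chemokine that attracts leukocytes and stem cells through CXCR4, was at 5.47 and 15.2 against 1.71 and 1.61 RPKM (-2.42, adjusted p = 0.00971). Its WT clones differed by more than its knockout clones, and the call was lost when any of 3 of the 4 libraries was left out. COL14A1, a collagen that binds along fibrils, was at 0.195 and 0.453 against 0.0803 and 0.0376 RPKM (-2.35, adjusted p = 0.0256).

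BLOC1S3, a subunit of a complex that builds lysosome-related organelles, was at 2.72 and 2.90 RPKM in WT and 0.363 and 0.382 RPKM in knockout clones (log2 difference -2.83, adjusted p = 6.2e-04). With 4-OHT the order of the means was the opposite, with values of 1.16 and 5.55 RPKM in WT and 13.7 and 3.33 RPKM in knockout libraries, which overlapped (log2 difference 1.40; adjusted p = 0.784 by limma-trend and 0.00364 by limma-voom). The test of the change between states gave an adjusted p of 0.865 for this gene by limma-trend. CYP2A13, a cytochrome P450, was at 15.7 in both WT clones and 0.431 and 1.89 RPKM in knockout clones (-3.89, adjusted p = 0.00164), with 160, 96, 3 and 25 reads; it was not analysed with 4-OHT. The actin-associated PALLD, the kinase STK25, TENM2, SCUBE3, NXN, SPOCK1, LRRC17, ADAMTS19 and SRPRA, the receptor subunit for the signal recognition particle, were also called lower. Their log2 differences ran from -3.70 for NXN, which limma-voom did not call (adjusted p = 0.1), to -0.70 for SRPRA. ZNF469, picked out after its values were seen, had the most negative difference of any tested gene above 100 CPM (-4.40), because knockout clone 66 had 0 reads where the others had 255 to 409; it was not called (adjusted p = 0.356).

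Genes that the transcription factor ATF4 switches on for amino acid synthesis and transport were taken as a further group. ATF4 is made when the integrated stress response slows translation, and its targets supply serine, asparagine, one-carbon units and charged tRNAs. SLC7A5, the large neutral amino acid transporter, was at 9.92 and 9.16 RPKM in WT and 4.66 and 5.27 RPKM in knockout clones (log2 difference -0.94 ± 0.18 SE, adjusted p = 0.0317 by limma-trend). PSAT1, an enzyme of serine synthesis, was at 3.92 and 3.61 against 1.18 and 1.76 RPKM (-1.37 ± 0.27 SE, adjusted p = 0.0317). These were the 2 called genes of 23 tested on the ATF4 list, where 0.233% of all tested genes were called lower. Both lost their call when single libraries were left out, SLC7A5 without each of the 4 in turn and PSAT1 without any of 3.

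ASNS, asparagine synthetase, was at 5.36 and 5.98 RPKM in WT and 3.69 and 1.95 RPKM in knockout clones; it was called by limma-voom (adjusted p = 0.0114) and not by limma-trend (0.0925). PHGDH, the first enzyme of serine synthesis, was at 2.19 and 2.23 against 1.17 and 0.958 RPKM (adjusted p = 0.205), and DDIT4, an inhibitor of mTORC1, at 26.1 and 31.1 against 8.4 and 14.1 RPKM (adjusted p = 0.15). The aminoacyl-tRNA synthetases GARS, WARS, SARS and AARS also had both knockout values under both WT values, with log2 differences of -0.79, -0.65, -0.60 and -0.46, and were not called. In all, 14 of the 23 were lower without overlap and 1 was higher, against 20.7% and 18.9% of all tested genes, and the list's median log2 difference was -0.50. Leaving out any 1 library kept that median between -0.53 and -0.40. ATF4 itself overlapped, at 6.58 and 4.23 RPKM in WT and 4.08 and 5.87 RPKM in knockout clones, as did CHAC1, SLC7A11 and CEBPB.

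BCAT1, the cytosolic aminotransferase of branched-chain amino acids, and ALDH1L2, a mitochondrial enzyme of folate metabolism, are not on that list and were called lower. BCAT1 was at 1.60 and 1.27 RPKM in WT and 0.638 and 0.584 RPKM in knockout clones (log2 difference -1.22, adjusted p = 0.0214). ALDH1L2 was at 2.53 and 1.93 against 1.05 and 0.772 RPKM (-1.28, adjusted p = 0.0373). The composite element bound by ATF4 with a C/EBP partner was searched as TGATGNAA on both strands of the 250 bases before each transcription start in the RefSeq promoters (GRCh38.p14). It was in 3.14% of 35116 promoters, or before at least 1 start in 3.89% of 27305 genes, and in 4 of the 20 tested list genes that had an entry (ASNS, CHAC1, GARS and AARS). BCAT1 also had it before 1 of its 5 listed starts, and the windows of PSAT1 and SLC7A5 did not hold these letters. ALDH1L2 had no promoter entry and could not be searched. The element was not counted over the called genes as a set. A match describes the letters and is no measure of binding. The ASNS and BCAT1 windows are shown because the first belongs to a list gene called by limma-voom and the second to a called gene; they run 5′ to 3′ on the minus strand, chr7:97872409-97872658 for ASNS and chr12:24949102-24949351 for BCAT1, with the element in capitals.
ASNS: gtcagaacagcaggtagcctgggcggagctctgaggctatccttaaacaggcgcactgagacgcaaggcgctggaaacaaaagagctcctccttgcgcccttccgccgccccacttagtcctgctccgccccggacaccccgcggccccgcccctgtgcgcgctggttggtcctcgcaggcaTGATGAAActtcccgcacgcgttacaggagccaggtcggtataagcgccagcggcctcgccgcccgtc
BCAT1: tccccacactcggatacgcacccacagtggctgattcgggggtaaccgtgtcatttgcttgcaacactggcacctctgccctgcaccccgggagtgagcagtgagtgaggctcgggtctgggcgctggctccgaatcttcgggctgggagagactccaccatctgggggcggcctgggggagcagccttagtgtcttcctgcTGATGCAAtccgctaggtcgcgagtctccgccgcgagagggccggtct
The element begins 68 bases before the start in ASNS and 48 bases before it in BCAT1.

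**Figure D3:**
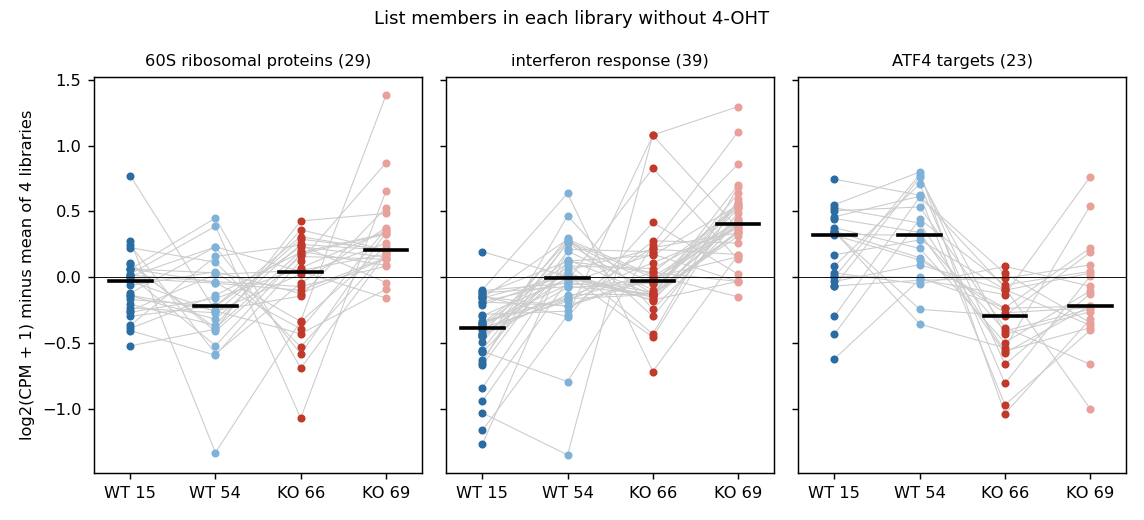
For 3 gene lists, each point is a tested member in 1 library without 4-OHT, as log2(CPM + 1) minus the mean of the 4 libraries; grey lines join the values of a gene and black bars are medians. The ATF4 list has medians of 0.32 and 0.32 in the WT and -0.29 and -0.21 in the knockout clones, whereas the interferon list has nearly the same median in WT clone 54 (0.00) and knockout clone 66 (-0.03).

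Interferon-induced genes, which act against viruses and present antigens, had a log2 difference above 0 in 36 of 39 tested members. Of the 39, 1 was called higher, against 0.368% of all tested genes. MX1, an antiviral GTPase, was the one called member, at 0.332 and 0.261 RPKM in WT and 1.52 and 1.77 RPKM in knockout clones (log2 difference 2.38 ± 0.36 SE, adjusted p = 0.00767 by limma-trend), on 17, 8, 53 and 117 reads. B2M, the light chain of MHC class I, was at 688 and 791 against 1048 and 1134 RPKM (0.56) and was called by limma-voom (adjusted p = 0.0077) and not by limma-trend (0.117). In all, 18 members were higher and 1 was lower without overlap, against 18.9% and 20.7% of all tested genes, with a median log2 difference of 0.39.

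The clones of one genotype were not alike on this list. Deviations from the mean of the 4 libraries had a median of -0.38 in WT clone 15, 0.00 in WT clone 54, -0.03 in knockout clone 66 and 0.40 in knockout clone 69. The list's median difference was 0.14 without knockout clone 69 and 0.59 without knockout clone 66. IFI6, for example, was at 595 and 1083 RPKM in the WT clones and 884 and 1393 RPKM in the knockout clones, so that the groups overlapped.

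The interferon-stimulated response element was searched as GAAA, any 2 bases and GAAA again, on both strands of the same windows. It was in 3.02% of all promoters, or before at least 1 start in 3.71% of all genes, and in 19 of the 31 tested list genes with an entry, MX1 and B2M among them. The windows of these 2 genes are shown since one was called by limma-trend and the other only by limma-voom; both run 5′ to 3′ on the plus strand, at chr21:41431800-41432049 for MX1 (1 of 3 listed starts) and chr15:44711267-44711516 for B2M. Capitals mark the element, which in B2M consists of 2 overlapping matches and in MX1 lies on the opposite strand.
MX1: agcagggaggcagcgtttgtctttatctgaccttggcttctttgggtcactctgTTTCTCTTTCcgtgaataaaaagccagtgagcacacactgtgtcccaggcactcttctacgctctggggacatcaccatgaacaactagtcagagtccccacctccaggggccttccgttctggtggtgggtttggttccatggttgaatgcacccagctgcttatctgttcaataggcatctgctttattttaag
B2M: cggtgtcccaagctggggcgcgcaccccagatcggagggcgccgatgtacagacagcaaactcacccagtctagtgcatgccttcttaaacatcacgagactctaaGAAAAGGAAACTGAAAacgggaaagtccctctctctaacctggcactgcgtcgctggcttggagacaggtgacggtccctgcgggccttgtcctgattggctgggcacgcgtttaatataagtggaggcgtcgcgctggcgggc

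The machinery around SNORA13 showed no called gene. Of the dyskerin particle, DKC1 was at 2.48 and 2.96 RPKM in WT and 3.19 and 2.86 RPKM in knockout clones, NHP2 at 6.88 and 11.5 against 9.10 and 10.2, NOP10 at 44.9 and 59.6 against 60.5 and 65.0, and GAR1 at 1.80 and 1.37 against 1.68 and 2.85. DKC1, NHP2 and GAR1 overlapped between the genotypes. None of 21 tested genes of snoRNA particles and rRNA modification was called by either limma-trend or limma-voom (median log2 difference 0.01). The same held for 46 assembly factors of the large subunit (0.03), 42 of the small subunit (0.06) and 12 genes of RNA polymerase I, which transcribes ribosomal RNA (-0.12). Host genes of other snoRNAs that make a protein also had no call among 40 (0.03). Without single libraries these medians lay between -0.22 and 0.20, and those of the snoRNA particles, the large-subunit assembly factors and the host genes changed sign. Over all tested genes 0.600% were called by limma-trend and 0.760% by limma-voom, so no call in lists of this size says little. Without overlap, 11 small-subunit factors were higher and 3 lower, and 0 and 4 of the RNA polymerase I genes. For the snoRNA particles these counts were 2 and 3, for the large-subunit factors 9 and 7, and for the host genes 9 and 6. Of all tested genes 18.9% were higher and 20.7% lower without overlap.

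The log2 difference was above 0 for 21 of 29 tested proteins of the large and 17 of 21 of the small ribosomal subunit. Among all these tested proteins 1 was called higher, against 0.368% of all tested genes. RPL23, a large-subunit protein, was at 8.38 and 7.11 RPKM in WT and 8.69 and 10.3 RPKM in knockout clones, without overlap (log2 difference 0.29 ± 0.29 SE, adjusted p = 0.8 by limma-trend). Of the large-subunit genes 13 were higher and 0 lower without overlap, against 18.9% and 20.7% of all tested genes, with a median log2 difference of 0.29 and no call. Of the small-subunit genes 10 were higher and 1 lower without overlap, against the same background of 18.9% and 20.7% (median 0.28). RPS29 was called, at 1.08 and 0.657 RPKM in WT and 2.81 and 2.70 RPKM in knockout clones (1.66, adjusted p = 0.0317); its span also holds RN7SL1, the abundant RNA of the signal recognition particle, whose part in these reads was not tested. WT clone 54 had the lowest and knockout clone 69 the highest median of the large-subunit list, and without them the list's median difference was 0.17 in both cases. Many of these proteins have processed copies elsewhere in the genome, and how reads that map to several places were counted is not given in the sources used here.

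RPL5 and RPL11, which sit with 5S ribosomal RNA in the large subunit, were at log2 differences of 0.39 and 0.23 and were not called. CDKN1A (p21), which halts the cell cycle in senescence, was at 5.84 and 14.2 RPKM in WT and 7.03 and 10.4 RPKM in knockout clones, so the WT clones spanned the knockout clones.

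Among 21 tested senescence-associated secretory factors, IGFBP2 and IGFBP5 were called higher and CXCL12 lower, against 0.368% and 0.233% of all tested genes. Without overlap, 8 were higher and 5 lower, against 18.9% and 20.7% of all tested genes. The list's median log2 difference was 0.22, and 0.035 without knockout clone 69. A difference above 0 was found in 14 of the 21. The differences ran from -3.39, in a gene that was not called, to 3.57 for CXCL8. MMP3 (stromelysin, a matrix protease) was at 9.20 and 7.61 RPKM in WT and 15.9 and 21.9 RPKM in knockout clones, called by limma-voom (adjusted p = 0.0279) and not by limma-trend (0.0645). CXCL8, a neutrophil chemokine, was at 1.92 and 0 against 4.58 and 20.2 RPKM (adjusted p = 0.205). IL6, the inflammatory cytokine, had 0 reads in both WT clones and 5 and 14 in knockout clones 66 and 69; CXCL1 had 0 and 0 against 4 and 19. Both were below the read filter. A count of 0 still allows up to 3 reads, or 2.27 and 3.80 CPM in WT clones 15 and 54, counting error only.

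**Figure D4:**
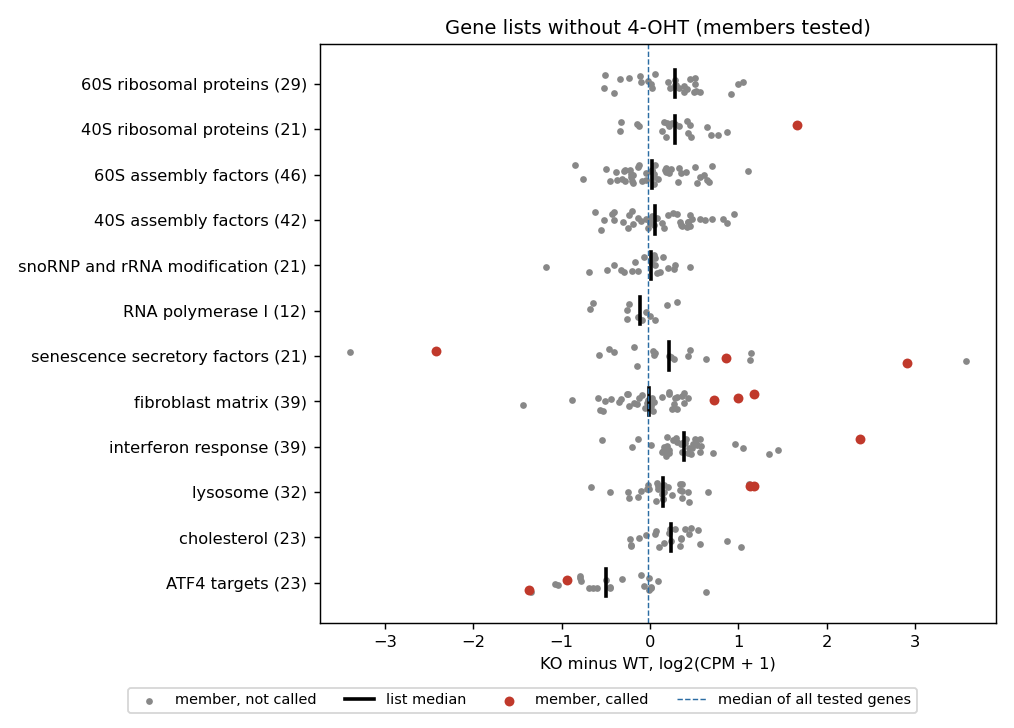
Knockout minus WT difference in log2(CPM + 1) without 4-OHT for the tested members of 12 gene lists; red points passed the threshold, black bars are list medians and the dashed line is the median of all tested genes (-0.03). The ATF4 list lies furthest to the left with a median of -0.50 and the interferon list furthest to the right with 0.39.

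With 7 days of 4-OHT, 2 of 7761 tested genes were called between the same clones by limma-trend (0.0258%), IGFBP2 higher (0.0129%) and TAGLN lower (0.0129%), and 54 by limma-voom (0.696%). Depth was uneven there, with 190713 reads in knockout clone 66 and 588496 to 1685083 in the other libraries. Of the 49 genes called without 4-OHT, 37 were tested with it. The sign of the difference was the same in 31 of them, against 53.9% of the 7280 genes tested in both states, and 16 had no overlap in the same direction. Of the 2851 genes without overlap in the libraries without 4-OHT and tested in both states, 698 (24.5%) had none in the same direction with it. The 6 with the opposite sign were ADAMTS1, BLOC1S3, CITED2, EDN1, SCARA3 and SCUBE3. With 4-OHT the log2 difference was -2.17 ± 1.96 (SE) for EDN1 and -1.37 ± 1.99 for SCARA3, each with 0 reads in knockout clone 66. It was -0.32 ± 0.40 for ADAMTS1, -0.49 ± 0.24 for CITED2, 0.16 ± 0.20 for SCUBE3 and 1.40 ± 0.68 for BLOC1S3. None of the 6 was called there by limma-trend. Both states share their clones, so what is peculiar to a clone can recur in both.

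The genotype difference was also tested for a change between the states over 8777 genes. None was called by limma-trend (0%), 356 had an unadjusted p under 0.05, and limma-voom called 4 (CITED2, COL1A1, TAGLN and THBS1). CITED2 was higher in knockout clones without 4-OHT and stood at 144 and 162 RPKM in WT and 122 and 97.1 RPKM in knockout libraries with it (change in the log2 difference -1.32, adjusted p = 0.581 by limma-trend and 0.0169 by limma-voom). SLC7A5 with 4-OHT was at 5.24 and 5.50 against 5.17 and 3.89 RPKM, and PSAT1 at 3.27 and 2.63 against 2.07 and 3.46 RPKM. For the 21 ATF4 list genes tested there, 5 were higher and 4 lower without overlap, near the 19.1% and 18.5% of all genes tested there, with a median log2 difference of -0.10. MX1 with 4-OHT was listed at 0 in 3 of the 4 libraries. The interferon list had 28 tested genes there and a median of 0.08. That these lists differ between the genotypes in one state only was not tested.

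**Figure D5:**
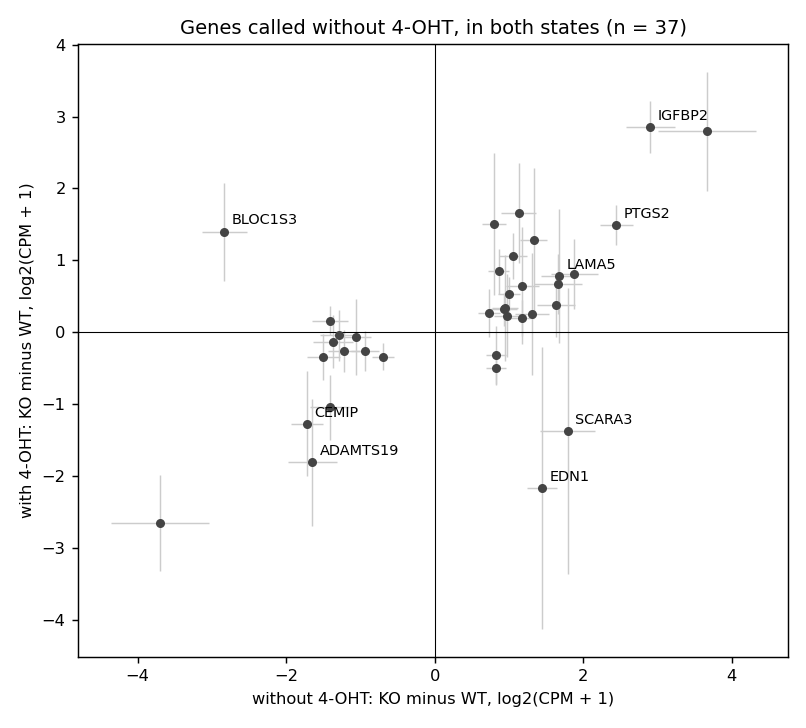
Knockout minus WT difference in log2(CPM + 1) without 4-OHT (horizontal) and with 4-OHT (vertical) of the 37 genes called without 4-OHT and tested in both states; bars are standard errors. IGFBP2 has 2.90 and 2.85, PTGS2 2.45 and 1.49, and BLOC1S3 -2.83 and 1.40.

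Every called gene had knockout and WT values that did not overlap, which holds for 18.9% of all tested genes in the higher and 20.7% in the lower direction. In 9 of the 49 the call stood when any 1 library was left out: CCDC105, PTGS2, EEF1A2, IGFBP2, RDH10 and CTSC, which were higher, and BLOC1S3, CYP2A13 and CEMIP, which were lower. Without knockout clone 66 18 genes were called, without knockout clone 69 it was 69, without WT clone 54 34 and without WT clone 15 49. In 10 of the 49 the span overlaps another protein-coding gene in RefSeq, BLOC1S3 with EXOC3L2, CEMIP with MESD and LOX with SRFBP1 among them, and in 7 it holds a small structural RNA gene or pseudogene. Whether the counting used the strand is not given in the sources used here, so reads of overlapping genes could not be told apart.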

How the data were processed

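Ribosome footprints were prepared after McGlincy and Ingolia, per the labels' protocols, and the submitters' processing notes name STAR and GRCh38. The authors deposited RPKM values over the whole gene span, as read from the values themselves, because the tables name no unit: each value times its RefSeq span gave library sums that hardly differed. Spans (GRCh38.p14) matched 11345 genes by identifier and 103 by symbol; 98 without one were not tested. CPM is value times span. Reads were recovered from the step between low values, of which 77.8% to 82.8% were whole within 0.1 read, so reads of single genes are approximate. No column of per-sample values was left unused.

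Genes with 10 recovered reads in 2 of 4 libraries were tested by limma-trend (limma 3.58.1, R 4.3.3) on log2(CPM + 1), without covariates, adjusted by Benjamini-Hochberg at 0.05. The added 1 makes fold changes of low genes too small. CPM was used since 1 RPKM over a long span is many reads. With 4 libraries there are 3 distinct splits, so an exact permutation test cannot reach the threshold and none was run. The clones, lists, scale and tests were chosen with earlier results of these data known. Genes named beyond the lists are the called genes, apart from an item that is not reported here, and by the rule the most changed called genes per direction with a mean of 20 CPM, a panel of 25 genes (18 listed) and the genes within 2 Mb of SNORA13. Alternatives were other pseudocounts, filters, scalings, limma-voom, all 8 libraries, a clone block and each library left out; list medians without each library were added after seeing the data.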

Additional observations from a re-analysis of the deposited data

How the results depend on the processing

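Against 49 genes called without 4-OHT (30 higher, 19 lower), 0 were called in either direction with 1 or 0.1 RPKM added in place of 1 CPM, without the read filter, and with all 8 libraries in the fit. With 5 CPM added, with median-ratio scaling, with a mean of at least 50 reads and without ribosomal protein, histone and mitochondrial genes the count was 49 to 54. Limma-voom called 62, with 29 lower. Leaving out single libraries gave 18 to 69 called, 8 to 36 higher and 7 to 53 lower; the lone clone is then assumed to vary like the others. No called gene changed sign under any alternative.

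The clone numbers are shared between the states and not between the genotypes compared. With all 8 libraries and the clone as a random replicate block, 0 genes were called without 4-OHT (lowest adjusted p 0.0502) and 1 with it; the clone as a fixed replicate block gave 0 for the change between states. With 4-OHT the count of 2 became 0 with either RPKM pseudocount or no filter, 54 by limma-voom, 1 with all 8 libraries, and 16 to 1830 when single libraries were left out, 1830 without knockout clone 69. The change between states had 0 calls, 4 by limma-voom and 0 to 910 without single libraries, 910 without knockout clone 69 with 4-OHT. The causes of these shifts were not tested. Low depth limits genes of few reads most.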

Other observations

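Several further lists had no called gene by limma-trend or limma-voom without 4-OHT, where 0.600% and 0.760% of all tested genes were called. Genes of cholesterol synthesis and uptake had a median log2 difference of 0.24 over 23 tested, beside -0.03 over all tested genes. Of these, 9 were higher and 1 lower without overlap, against 18.9% and 20.7% of all tested genes, and the median was 0.04 without knockout clone 69 and 0.37 without knockout clone 66. The 38 tested genes of mitosis had a median of -0.15, which was 0.05 without knockout clone 66, -0.29 without knockout clone 69 and -0.07 without WT clone 15, and those of DNA replication, also 38, had one of 0.12, which was 0.29 without knockout clone 66, 0.295 without WT clone 15 and 0.08 without WT clone 54. Mitochondrial ribosomal proteins had a median of -0.12 over 62, which was 0.015 without knockout clone 66 and -0.26 without knockout clone 69. Cytosolic chaperones had a median of 0.17 over 21, and 0.09 without WT clone 54. The hypoxia list, with 10 tested genes, holds 1 called gene, LOX.

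HGF, hepatocyte growth factor, was at 0.245 and 0.267 RPKM in the WT clones and 0.0156 and 0.00823 RPKM in the knockout clones and was not called (adjusted p = 0.292 by limma-trend). MFAP4, a protein of elastic fibres, was at 31.1 and 84.2 against 16.3 and 21.4 RPKM, with WT clone 54 far above the rest (adjusted p = 0.133). Of the chromosomes examined, none stood apart. Only a part of the tested genes was used, from 25 on chromosome 18 to 168 on chromosome 1. In each library the median log2 difference of a chromosome's genes from the other 3 libraries lay between -0.12 and 0.13.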
